A study of Mus musculus with 48 samples.

Results

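Blockade of PD-1, an inhibitory receptor of activated T cells, is meant to release T cells that then secrete interferon-γ, the product of *Ifng*. Interferon-γ acts through JAK kinases to induce *Irf1*, guanylate-binding proteins, immunity-related GTPases, the chemokines CXCL9 and CXCL10, antigen presentation and PD-L1. B16 melanoma is known as a tumor with few T cells and a weak response to PD-1 blockade. The comparison described here asked which genes differed between anti-PD-1 and control IgG in B16-D5 tumors of WT mice on day 3 of therapy. It covers 6 of the 48 tumors of the series, 3 per group, each profiled by RNA sequencing. They were chosen by the treatment and day in their sample titles, and they were described across all genes.

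The mice were C57BL/6J WT animals, 4 weeks old at arrival and housed for 2 weeks. B16-D5 melanoma cells were placed under the flank skin 8 days before day 0. Antibody was given at 250 µg in 200 µL of PBS on days 0 and 3, as anti-PD-1 (#BE0146) or as IgG (#BE0089). Whether the day 3 tumors were taken before or after the dose of that day is not stated in the sources used here. All groups carried the same cell line and genotype, and 3 untreated day 3 tumors served as a second control. For none of the 6 tumors did the separate treatment or time field match the title, so the groups rest on the titles alone.

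The 9 day 3 libraries held between 28804491 and 45015438 counts on genes. Melanocyte genes dominated, with *Dct* between 3832 and 6276 CPM (counts scaled by the library's total and its TMM factor), while the keratinocyte gene *Krt14* was at most 0.33 CPM. IgG replicate 3 and anti-PD-1 replicate 4 stood apart from the other tumors and are named beside the results they touch. IgG replicate 3 had 191 genes over 2-fold above and 114 over 2-fold below all other 5 tumors, and anti-PD-1 replicate 4 had 85 and 166. None of the other 4 exceeded 26 and 34. IgG replicate 3 also had the fewest counts, the highest scaling factor (1.14, others 0.945 to 1.06) and the highest share of counts on unverified transcripts (0.371%, others 0.146% to 0.302%). Of the 6 tumors it had the most RNA of olfactory and other sensory receptor genes, 129 CPM against 29 to 85.1 CPM, here scaled by the total alone. Since whole tumors were sequenced, fewer cells of a type and less RNA per cell cannot be told apart.

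No gene passed the test between anti-PD-1 and IgG. Of 26848 genes tested with edgeR's quasi-likelihood test, 0 (0% in each direction) passed an adjusted p of 0.05, and the lowest adjusted p was 1. An unadjusted p under 0.05 was reached by 575 genes (2.14%), with 139 above (0.518%) and 436 below IgG (1.62%). Many of them were near the floor, as the ties given below show. Protein-coding genes made up 59.7% of the higher and 50.7% of the lower ones, against 67.2% of all genes tested. DESeq2 called 21 genes, of which 20 had no count in any library of one group and at most 30 counts in any library of the other. The exception was *Oxtr*, the oxytocin receptor gene, which was singled out after its values were seen. Its counts were 2, 2 and 1 with anti-PD-1 (replicates 3, 4 and 5) and 21, 74 and 46 with IgG (replicates 2, 3 and 5). Its adjusted p was 0.0266 in DESeq2 and 1 in edgeR, where its unadjusted p of 0.00066 was the lowest of all genes. The sign of the differences was balanced, with 50.2% of genes above and 47.9% below a log2 fold change of 0. Differences of 2-fold or more were not balanced. Among the 14571 genes with a mean of at least 1 CPM, 47 were higher and 404 lower by that much. Of the 436 genes lower at the unadjusted threshold, 309 (70.9%) had their highest value in IgG replicate 3. IgG replicates 2 and 5 had it for 72 and 55, and no anti-PD-1 tumor had it for any. Of the 139 higher genes, IgG replicate 3 alone had the lowest value for 54 (38.8%), and IgG replicates 2 and 5 for 5 and 4. Anti-PD-1 replicate 4 had it for 1, and the rest were tied. Of the 436 lower genes, anti-PD-1 replicates 3, 4 and 5 alone had the lowest value for 66, 54 and 27, and the rest were tied. A tie means no count in any of the tied tumors. Tied genes are kept in the percentages. Over all genes tested, IgG replicates 2, 3 and 5 were the highest tumor for 12.6%, 21.3% and 13.7%. They were the lowest for 5.05%, 27.7% and 5.21%. These shares run over all 6 tumors, while the extremes above fell almost only in IgG tumors, so they are not a like background. Without IgG replicate 3 the unadjusted counts were 46 higher and 264 lower.

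The interferon-inducible GTPases had the largest median difference of the 17 pathway lists. These proteins attack membranes around intracellular pathogens and are classical targets of interferon-γ. All 16 members were higher in anti-PD-1 tumors, 0 of them past the threshold, and the median log2 fold change was 1.04, against 0.00 for all genes tested. *Iigp1* was at 703, 139 and 77.5 CPM with anti-PD-1, in the order of replicates 3, 4 and 5 used throughout. It was at 72.2, 273 and 40.9 CPM with IgG (replicates 2, 3 and 5) and at 163, 203 and 94.3 CPM in the untreated tumors (replicates 1, 2 and 4). One tumor of each antibody group was high, and the groups overlapped. Its log2 fold change was 1.25 ± 1.09 (SE), with an adjusted p of 1 in edgeR.

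The same tumor led nearly the whole list. Anti-PD-1 replicate 3 had the highest value of the 6 for 15 of the 16 members, and IgG replicate 3 had it for the remaining one. The mean level of the list, as log2(CPM + 0.5), reached 6.81, 4.78 and 3.96 under anti-PD-1 and 4.00, 5.79 and 3.53 under IgG. In untreated tumors it was 4.83, 5.09 and 4.09. The sign of the list therefore rested on single tumors. Without anti-PD-1 replicate 3, the median was -0.42 and all 16 members were lower. Without IgG replicate 3 it was 2.17, and with the sensory receptor level as a covariate it was 0.65.

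**Figure D1:**
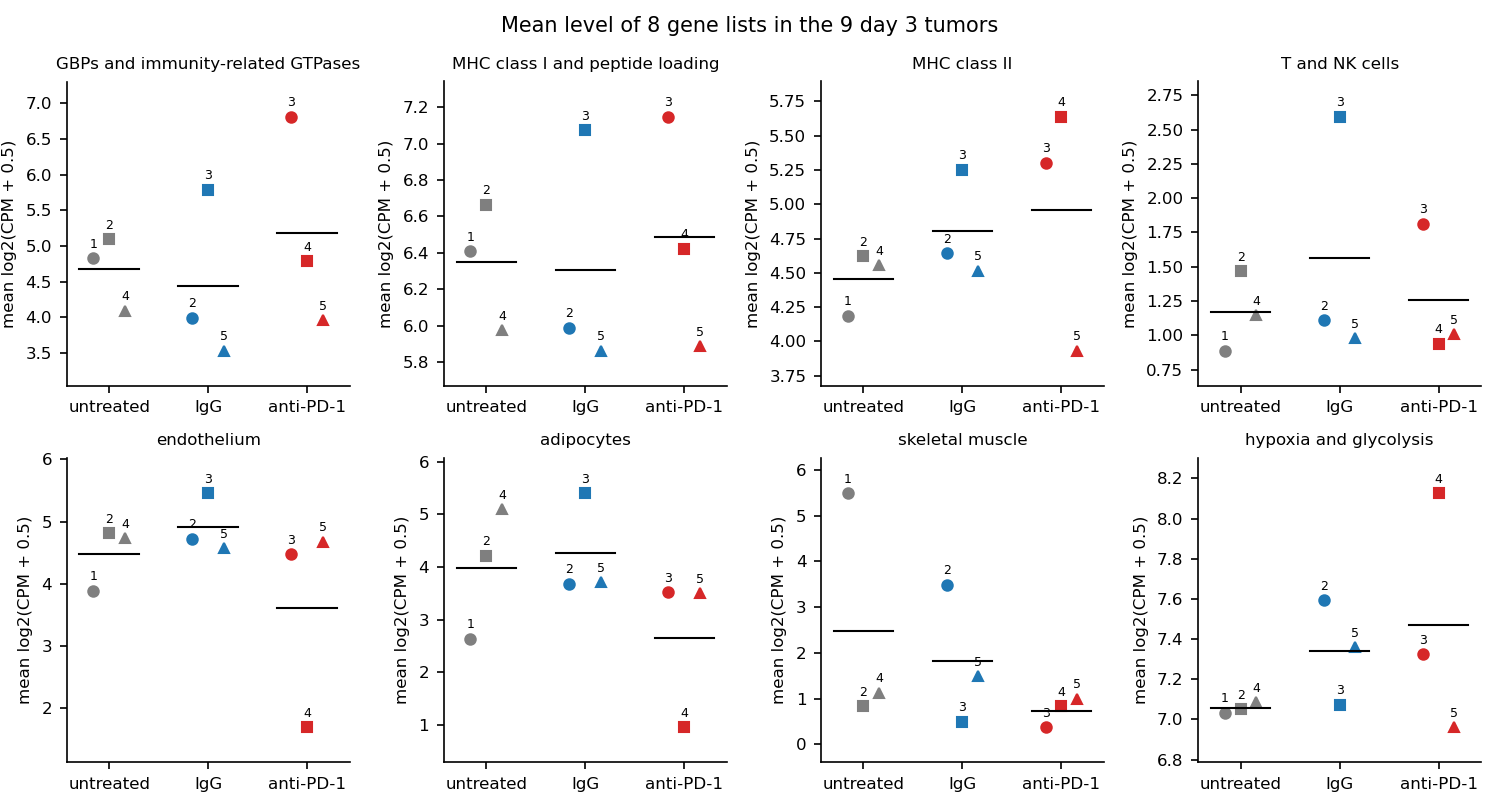
Mean log2(CPM + 0.5) of 8 gene lists in each untreated, IgG and anti-PD-1 tumor of day 3; points are tumors labelled with their replicate number, and bars are the mean of 3. Anti-PD-1 replicate 3 and IgG replicate 3 are the highest tumors for the GTPases and MHC class I, and anti-PD-1 replicate 4 is the lowest for endothelium and adipocytes.

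The genes at the head of the pathway followed the same pattern. *Ifng* counts were 114, 16 and 1 with anti-PD-1 and 20, 25 and 0 with IgG, and *Ifnb1*, a type I interferon, had 0 in all 9 libraries, where 3 counts would be between 0.069 and 0.0913 CPM. *Irf1*, the interferon-γ-induced transcription factor, was at 214, 59.0 and 38.6 CPM with anti-PD-1 and at 40.8, 88.4 and 27.5 CPM with IgG. Its log2 fold change was 0.99 ± 0.79 (SE). *Socs1*, a feedback inhibitor of JAK kinases, was at 17.8, 5.92 and 3.93 CPM against 3.79, 6.24 and 2.04 CPM. For *Ifng*, *Irf1* and *Socs1*, anti-PD-1 replicate 3 was the highest tumor, and the other two anti-PD-1 tumors lay within the IgG range. Of the interferon ligands and receptors tested 5 of 6 were higher (median 0.15), of the JAK-STAT and SOCS genes 9 of 10 (0.19, and -0.01 without anti-PD-1 replicate 3), and of the interferon regulatory factors 5 of 9 (0.00).

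Among the targets, *Cxcl9*, a chemokine that recruits CXCR3-bearing T cells, was at 155, 37.6 and 22.03 CPM with anti-PD-1 and at 23.7, 71.9 and 8.59 CPM with IgG. *Cxcl10*, its close relative, was at 553, 111 and 208 CPM against 155, 192 and 150 CPM, and at 333, 336 and 190 CPM in untreated tumors. Thus the log2 fold change of *Cxcl10* was 0.81 ± 0.72 (SE) against IgG and 0.02 ± 0.71 (SE) against untreated tumors. *Cd274*, which encodes PD-L1, was at 88.1, 29.1 and 18.2 CPM against 23.7, 43.6 and 16.3 CPM. In the list of type I interferon effectors, 29 of 33 members were higher, with a median of 0.25. One of them, *Eif2ak2*, the RNA-activated kinase PKR, did not overlap between groups, with 176, 123 and 112 CPM against 105, 96.4 and 105 CPM. Over all genes tested, 3.5% did not overlap and were higher, and 8.32% did not overlap in either direction. Without anti-PD-1 replicate 3 the list's median was -0.03, with 14 of 33 members higher.

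Antigen presentation genes showed small differences. For MHC class I and peptide loading, 15 of 17 members were higher with a median of 0.23, and without anti-PD-1 replicate 3 the median was -0.24 with 1 of 17 higher. *Tap1*, the peptide transporter, was at 162, 78.1 and 54.6 CPM against 57.4, 136 and 49.6 CPM. MHC class II genes were higher for 10 of 10 members, with a median of 0.28, but here another tumor led. Anti-PD-1 replicate 4 had the highest value for 8 of them, with *H2-Ab1* at 444 CPM there, 279 and 117 CPM in the other anti-PD-1 tumors and 202, 311 and 188 CPM with IgG. Without that tumor the median was -0.17.

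**Figure D2:**
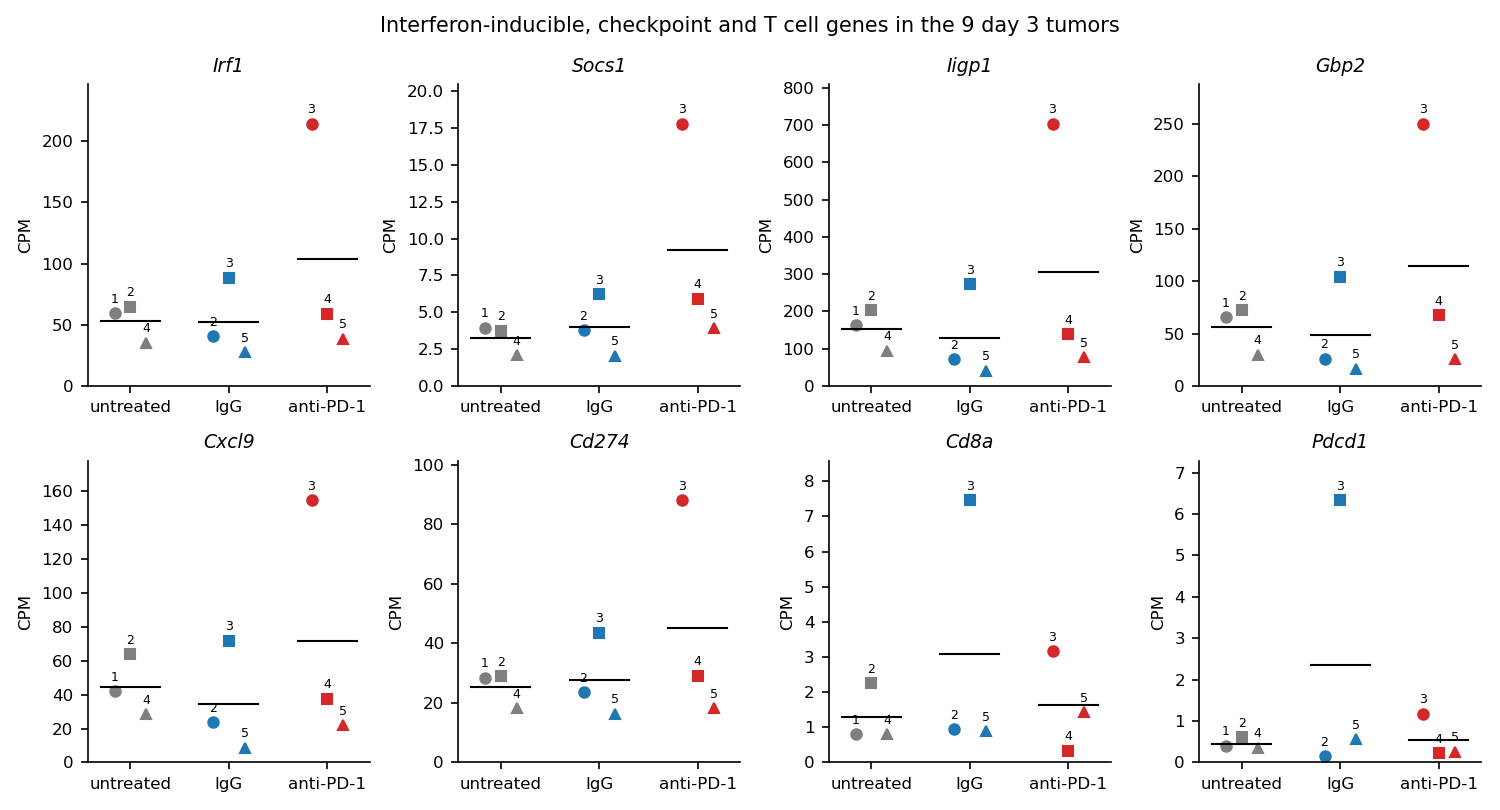
CPM of 8 genes in each untreated, IgG and anti-PD-1 tumor of day 3; points are tumors labelled with their replicate number, and bars are the mean of 3. For Irf1, Socs1, Iigp1, Gbp2, Cxcl9 and Cd274 the highest of the 9 tumors is anti-PD-1 replicate 3, and for Cd8a and Pdcd1 it is IgG replicate 3.

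Promoter sequences are shown for members of the GTPase list and for *Irf1*, because these genes varied together between tumors. The 250 bases before the start of transcription were taken from RefSeq on GRCm38.p6. Capitals mark matches to the interferon-stimulated response element (GAAA, any 2 bases, GAAA) or the gamma-activated site (TTCNNNGAA), on either strand. The windows are chr11:48871421-48871670 on the minus strand for *Irgm1* and chr11:58214727-58214976 on the plus strand for *Irgm2*. For *Irf1* the window is chr11:53769764-53770013 on the plus strand, and a second *Irf1* start in the table held no match.
Irgm1: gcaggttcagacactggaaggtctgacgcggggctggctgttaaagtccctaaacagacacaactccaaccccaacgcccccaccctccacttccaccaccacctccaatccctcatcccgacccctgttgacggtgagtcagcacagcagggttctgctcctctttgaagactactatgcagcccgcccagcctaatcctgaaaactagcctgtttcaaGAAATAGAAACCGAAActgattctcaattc
Irgm2: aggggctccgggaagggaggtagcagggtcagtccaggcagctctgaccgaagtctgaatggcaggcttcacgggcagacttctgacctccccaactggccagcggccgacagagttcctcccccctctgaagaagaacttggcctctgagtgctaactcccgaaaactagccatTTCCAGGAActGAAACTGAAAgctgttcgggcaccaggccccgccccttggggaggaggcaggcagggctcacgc
Irf1: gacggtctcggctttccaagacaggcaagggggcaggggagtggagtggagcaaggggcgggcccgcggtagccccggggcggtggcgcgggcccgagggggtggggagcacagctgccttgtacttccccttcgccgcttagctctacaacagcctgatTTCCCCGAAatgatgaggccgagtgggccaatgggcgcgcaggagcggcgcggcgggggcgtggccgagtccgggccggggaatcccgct

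In *Irgm1* the capitals are 2 overlapping response elements, starting 30 and 24 bases before the start. In *Irgm2* a gamma-activated site lies 75 and a response element 64 bases before it, and in *Irf1* the match is a gamma-activated site at 90 bases. Of the 16 GTPase genes, 9 were in the promoter table, and all 9 held a response element and 6 a gamma-activated site. Over all 32851 promoters of this length, the shares were 2.98% and 7.02%. For MHC class I, led by the same tumor, 2 of the 15 genes in the promoter table held a response element and 1 a gamma-activated site. For type I interferon effectors it was 10 and 4 of 24 genes. A gene was counted with a match in any of its promoters, while the shares over all were counted by promoter, so the units differ. The *Cxcl9* window held neither. That of *Cxcl10* held 1 response element, 213 bases before the start, and no gamma-activated site. *Irgm1* itself was at 352, 112 and 102 CPM with anti-PD-1 and at 88.9, 180 and 91.9 CPM with IgG. A match is a description of the sequence and not a site of binding.

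T and NK cell genes were mostly lower with anti-PD-1, again with no call. Of 24 T and NK cell genes, 2 were higher and 22 lower, with a median of -0.56. *Cd8a*, a coreceptor of cytotoxic T cells, had 138, 12 and 56 counts in anti-PD-1 and 32, 245 and 33 counts in IgG tumors. *Cd3e*, part of the T cell receptor complex, was at 18.03, 2.33 and 6.90 CPM against 2.26, 28.6 and 3.11 CPM. *Pdcd1*, the gene of the targeted receptor, had 51, 8 and 10 counts against 5, 208 and 21 counts. IgG replicate 3 had the highest value of the 6 for 19 of the 24 genes. Without it, 19 of 24 were higher in anti-PD-1 tumors and the median was 0.27. Of the 16 checkpoint genes tested, 8 were higher, and *Btla* alone did not overlap, at 0.966, 0.869 and 1.04 CPM against 1.35, 4.35 and 1.26 CPM. Beside this, 4.83% of all genes tested did not overlap and were lower.

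Myeloid lists were close to 0 or lower. Of 14 macrophage genes, 4 were higher (median -0.25, and -0.58 without anti-PD-1 replicate 4), and of 9 dendritic cell genes 1 was (median -0.65). *Clec9a*, a marker of cross-presenting dendritic cells, was at 1.33, 1.63 and 0.330 CPM against 0.941, 6.00 and 0.967 CPM, so the difference again turned on IgG replicate 3. Without that tumor the dendritic cell median was -0.02. Of 15 neutrophil genes 9 could be tested (3 higher), and *S100a8*, a neutrophil calprotectin gene, had at most 8 counts in any library. Of the 10 B cell genes 5 were higher. Of 16 keratinocyte genes 6 were higher (median -0.37), and of 5 erythrocyte genes 4 were (median 0.98). Both lists were near the floor. All erythrocyte genes together summed to 2.1, 0 and 4.7 CPM with anti-PD-1 and to 1.3, 1.4 and 1.3 CPM with IgG. For the keratinocyte genes the sums were 6.8, 15.2 and 9 CPM against 9.7, 13.5 and 10.6 CPM. Leaving out a single tumor could turn the sign of either list. The keratinocyte median was 0.34 without IgG replicate 3 and 0.02 without anti-PD-1 replicate 3. The erythrocyte median was -1.24 without anti-PD-1 replicate 5.

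The study is about inducible nitric oxide synthase, the product of *Nos2*, an enzyme that interferon-γ induces in macrophages. *Nos2* counts were 591, 46 and 64 with anti-PD-1, 100, 104 and 34 with IgG and 68, 98 and 120 without treatment. The difference from IgG on the log2 scale was 1.24 ± 0.85 (SE), with an adjusted p of 1 in edgeR. Without anti-PD-1 replicate 3 it was -0.71. Of 13 genes of nitric oxide and arginine metabolism, 11 were higher, with a median of 0.21. *Arg1*, which consumes the same substrate, was at 7.08, 11.9 and 4.70 CPM against 5.88, 0 and 3.27 CPM, and *Slc7a2*, an arginine transporter, was at 5.26, 7.74 and 10.2 CPM against 5.56, 1.005 and 6.01 CPM. For both genes the lowest tumor was IgG replicate 3.

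Vessel and fat genes were lower with anti-PD-1, none past the threshold. All 14 endothelial genes shared the direction (median -0.77), and 4 of them did not overlap, as did 4.83% of all genes tested in this direction. *Cdh5*, the cadherin of endothelial junctions, was at 112, 0.617 and 143 CPM with anti-PD-1 and at 115, 194 and 117 CPM with IgG. Anti-PD-1 replicate 4 was the lowest of the 6 tumors for all 14 genes, and IgG replicate 3 the highest for 13. *Tek*, the angiopoietin receptor, was at 4.12, 2.86 and 6.52 CPM against 10.9, 19.1 and 8.30 CPM, and its log2 fold change was -1.50 ± 0.76 (SE), with an adjusted p of 1 in edgeR. *Plvap*, a protein of endothelial diaphragms, was at 64.2, 9.84 and 69.6 CPM against 80.4, 121 and 74.2 CPM. With both of those libraries left out, the median of the list was 0.01 and 7 of 14 genes were lower.

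The same 2 libraries were at the ends of the adipocyte list. All 13 genes were lower (median -1.68), and *Adipoq*, *Car3* and *Lep* did not overlap, beside 4.83% of all genes tested. *Car3*, a carbonic anhydrase abundant in fat, was at 30.9, 0 and 32.3 CPM against 39.5, 128 and 43.1 CPM. *Pparg*, the regulator of fat cell differentiation, was at 4.69, 1.99 and 4.59 CPM against 6.41, 13.6 and 3.92 CPM, and it was the only member with an unadjusted p under 0.05. *Lpl*, a lipase that macrophages also make, went the other way within the group, with 82.5, 256 and 69.7 CPM against 128, 176 and 117 CPM. With both libraries left out the median was -0.20, and with the sensory receptor level as a covariate it was -0.67. The share of fat or vessel in each tumor was not measured.

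**Figure D3:**
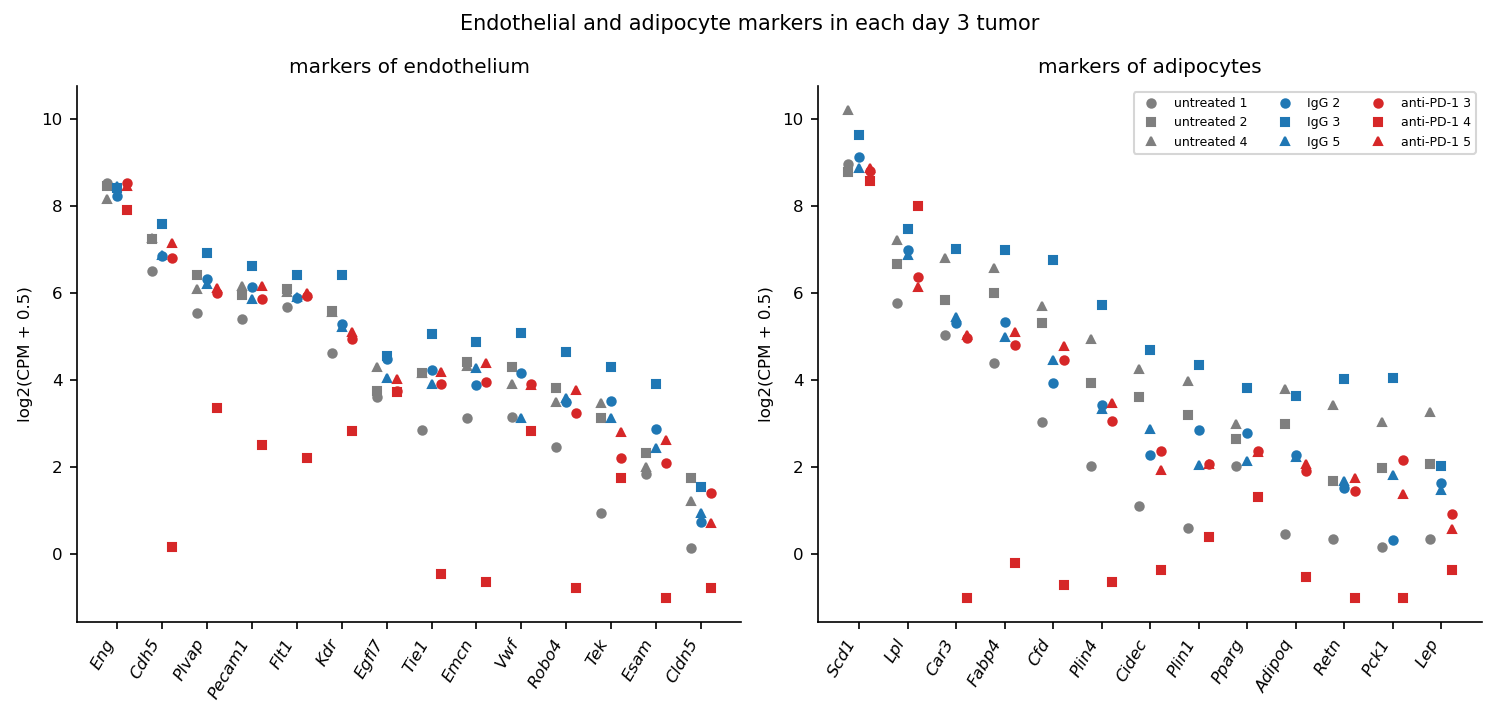
Log2(CPM + 0.5) of 14 endothelial and 13 adipocyte genes in each day 3 tumor, with grey for untreated, blue for IgG and red for anti-PD-1 and a symbol per tumor. Among the IgG and anti-PD-1 tumors, anti-PD-1 replicate 4 (red square) is lowest for all 14 endothelial and 12 of 13 adipocyte genes, and IgG replicate 3 (blue square) is at the top of most.

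Anti-PD-1 replicate 4, poor in endothelial RNA, was high in hypoxia and matrix genes. For 20 of 21 hypoxia and glycolysis genes it had the highest value of the 6 tumors. *Egln3*, an oxygen-sensing hydroxylase that hypoxia induces, was at 103 CPM there, 19.98 and 17.8 CPM in the other anti-PD-1 tumors and 42.1, 12.8 and 29.99 CPM with IgG. *Vegfa*, which encodes the vascular growth factor, was at 880 CPM there, 350 and 268 CPM in the other anti-PD-1 tumors and 579, 359 and 368 CPM with IgG. The list's median was 0.23, with 20 of 21 genes higher, and without that tumor it was -0.10 with 4 of 21 higher. For 15 of 18 fibroblast and collagen genes it was also the highest, yet 12 of the 18 were lower over the group (median -0.12). Without that tumor all 18 were lower (median -0.66), and the median was 0.07 without anti-PD-1 replicate 3 and 0.08 without replicate 5. *Acta2*, smooth muscle actin, did not overlap and was lowest in that tumor, at 36.03, 8.08 and 42.2 CPM against 55.5, 44.2 and 52.8 CPM.

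Skeletal muscle genes were lower for 18 of 18 members, with a median of -2.24, and here IgG replicate 2 decided the size. *Ttn*, the giant spring protein of muscle, was at 9.17, 7.32 and 15.6 CPM with anti-PD-1 and at 157, 7.28 and 30.6 CPM with IgG. In untreated tumors it was at 1087, 20.8 and 30.02 CPM, so a single tumor was high there as well. Without IgG replicate 2 the median was -0.46.

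The remaining lists showed small differences, and the cells their RNA came from were not tested. Melanocyte genes had a median of 0.14 (13 of 15 higher), and mitotic genes one of 0.09 (17 of 20 higher). *Mki67*, a marker of cycling cells, was at 1248, 988 and 1563 CPM against 1268, 905 and 1482 CPM. All 13 genes of the mitochondrial genome were higher, with a median of 0.17. The size of these 3 medians also depended on single tumors, though the mitochondrial one kept its sign in every setting (0.025 to 0.369). Without IgG replicate 3 the mitochondrial median was 0.03 (8 of 13 higher) and the mitotic one -0.02 (9 of 20), and without anti-PD-1 replicate 3 the melanocyte one was -0.01 (7 of 15). In the integrated stress response, 11 of 12 genes were higher (median 0.27), and *Asns*, *Chac1* and *Mthfd2* did not overlap, beside 3.5% of all genes tested. *Chac1*, a glutathione-degrading target of ATF4, was at 10.97, 12.6 and 11.2 CPM against 8.50, 8.59 and 8.91 CPM. In untreated tumors it was at 17.7, 11.7 and 10.2 CPM, so that they lay on both sides of the anti-PD-1 range. Of the NRF2 list 8 of 10 were higher (median 0.17), of the immediate early list 13 of 19 (0.12), and of CC chemokines and receptors 9 of 14 (0.18). Without anti-PD-1 replicate 4 the immediate early median was -0.25 and that of the CC chemokines and receptors -0.10.

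Single genes with the clearest separation were named by a fixed rule. They are the 10 per direction with the lowest unadjusted p among genes of at least 1 CPM whose groups did not overlap, and they are described without a test of the selection. Of the 14571 genes at that level, 678 (4.65%) did not overlap and were higher and 661 (4.54%) were lower. The lowest p was that of *Per3*, a period gene of the circadian clock on chromosome 4. It was at 7.01, 10.04 and 7.59 CPM with anti-PD-1 and at 15.2, 20 and 15.8 CPM with IgG, a log2 fold change of -1.05 ± 0.28 (SE). The unadjusted p in edgeR was 0.000947 and the adjusted p was 1. The untreated tumors lay between, at 11.8, 10.2 and 10.4 CPM. Leaving out any 1 library gave values between -1.22 and -0.90.

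The *Per3* promoter, chr4:151044666-151044915 on the minus strand of GRCm38.p6, is shown with its 2 D-box matches (TTATGTAA) in capitals. The D-box is bound by clock output factors such as DBP and TEF.
Per3: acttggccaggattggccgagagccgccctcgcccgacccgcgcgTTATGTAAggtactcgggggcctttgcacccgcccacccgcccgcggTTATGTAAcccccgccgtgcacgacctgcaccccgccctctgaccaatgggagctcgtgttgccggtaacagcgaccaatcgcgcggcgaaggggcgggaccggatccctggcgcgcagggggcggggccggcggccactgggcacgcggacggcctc

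D-box matches stood in 0.819% of the 32851 promoters of this length, and the E-box (CACGTG) that CLOCK and BMAL1 bind was not in this window. The genes of the clock were looked up after the values of *Per3* were seen, and 2 of 16 did not overlap, *Per3* and *Tef*, beside 8.32% of all genes tested. *Tef* did not overlap and was lower, at 63.0, 61.05 and 65.5 CPM against 72.5, 73.8 and 82.2 CPM. *Dbp* was at 8.69, 15.99 and 9.87 CPM against 13.7, 19.4 and 17.6 CPM, *Per1* at 117, 183 and 99.8 CPM against 173, 110 and 113 CPM, and *Arntl* at 17.7, 27.03 and 16.98 CPM against 14.4, 16.4 and 17.6 CPM. The hour of harvest is not given in the sources used here, and its part was not tested.

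The other lower genes included *Mcf2l*, a guanine nucleotide exchange factor, at 4.83, 6.39 and 5.94 CPM against 13.5, 21.3 and 8.19 CPM. *Fam13a* was at 0.276, 1.04 and 0.609 CPM against 2.50, 4.02 and 1.96 CPM. *Gpr182*, a chemokine-scavenging receptor of endothelium, was at 0.253, 0.393 and 0.914 CPM against 2.12, 5.45 and 2.47 CPM, a log2 fold change of -2.68 ± 1.02 (SE). *Exoc3l2*, *Ankle1*, *Gm43379* and the antisense gene *Gm26947* completed this direction with 2 gamma-protocadherin genes, *Pcdhgb8* and *Pcdhga6*, which share exons with their cluster, so that their counts are uncertain. IgG replicate 3 was the highest tumor for 8 of the 10. Genes chosen this way have their highest value in an IgG tumor, so shares over all 6 tumors are not a like background. Over all genes tested, IgG replicates 2, 3 and 5 were the highest for 12.6%, 21.3% and 13.7%.

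Among the higher genes, *Rnd1*, an atypical small GTPase, had the largest log2 fold change, 1.71 ± 0.55 (SE), from 2.05, 1.57 and 2.41 CPM against 0.735, 0.183 and 0.913 CPM. *Zic5*, a zinc finger transcription factor, was at 24.9, 21.4 and 36.2 CPM against 19.3, 17.02 and 20.2 CPM. *Parn*, a deadenylase that trims RNA tails, was at 32.4, 24.1 and 30.4 CPM against 21.3, 23.8 and 20.99 CPM. *Hoxa11*, a homeobox factor of the limb, was at 13.5, 14.5 and 17.6 CPM against 9.88, 5.57 and 10.2 CPM, and 11.6 to 18.6 CPM in untreated tumors. The list ended with *Ss18l1*, *Fkbp14*, *Tomm5*, *Cstf2t*, *Srek1ip1* and *Dnajc17*. IgG replicate 3 was the lowest tumor for 9 of the 10. The rule itself put the lowest value in an IgG tumor, so shares over all 6 tumors are not a like background. Over all genes tested, IgG replicates 2, 3 and 5 were the lowest for 5.05%, 27.7% and 5.21%.

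**Figure D4:**
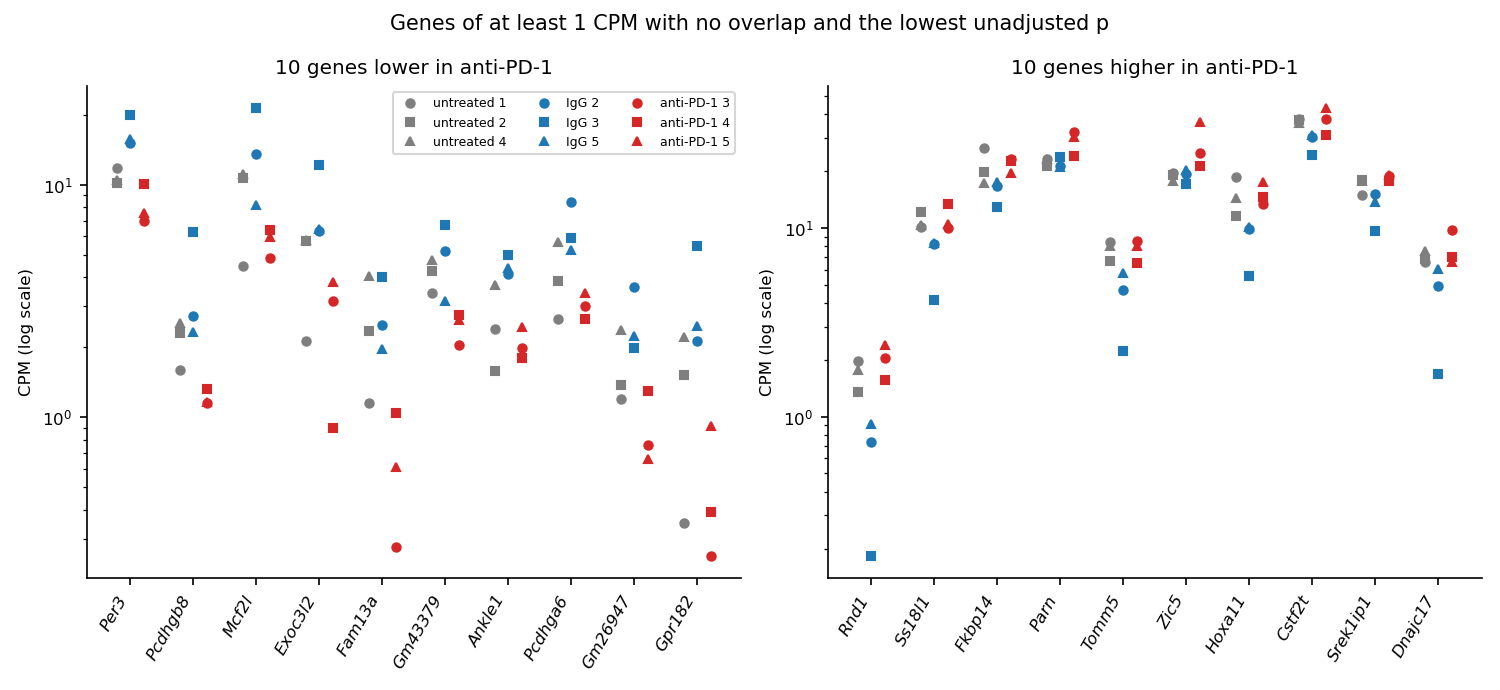
CPM on a log scale of the 10 lower and 10 higher genes in each day 3 tumor, with grey for untreated, blue for IgG and red for anti-PD-1 and a symbol per tumor. In each gene the red and blue points are apart, which is how they were chosen, and IgG replicate 3 (blue square) is the highest for 8 of the 10 lower genes and the lowest for 9 of the 10 higher genes.

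Against the untreated tumors there was no call either. With edgeR, 0 of 26848 genes passed (0% in each direction), and DESeq2 called 25. An unadjusted p under 0.05 was found for 706 genes (2.63%), 211 above (0.786%) and 495 below (1.84%). Without overlap, 946 genes (3.52%) lay above and 921 (3.43%) below the untreated tumors. IgG against untreated tumors gave 0 calls in edgeR as well, with 366 (1.36%) and 343 (1.28%) at the unadjusted threshold. The anti-PD-1 samples are shared between both contrasts, so the values stand side by side only. The GTPase list had a median of 1.04 against IgG and 0.96 against untreated tumors. MHC class II had 0.28 and 0.74, macrophage genes -0.25 and 0.59, and CC chemokines and receptors 0.18 and 0.71. Only 130 genes (0.892%) of at least 1 CPM were above and 71 (0.487%) below all 6 control tumors. Among the 20 named genes these were *Per3*, *Pcdhgb8*, *Fam13a* and *Gm43379* below and *Parn* and *Zic5* above.

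At earlier times, with other tumors and their own IgG controls, the lists took other values. The titles of the earliest antibody-treated tumors read D0, and the 6 hours given here are from their time field and the study's own description. Since that field matched the title for none of the 6 day 3 tumors, the 6 hours are uncertain. The GTPase median was 1.09 at 6 hours (16 of 16 higher), -1.94 on day 1 (0 of 16 higher) and 1.04 on day 3. The list's mean level at 6 hours was 5.64, 3.43 and 6.99 with anti-PD-1 and 6.19, 2.82 and 3.47 with IgG, so the groups overlapped. Its mean level in the 3 IgG tumors of day 1 was 4.34, 7.86 and 3.82, and anti-PD-1 gave 3.21, 5.33 and 4.34 on that day, so that the low value of day 1 came with 1 high IgG tumor. *Iigp1* was at 80.2, 1120 and 73.3 CPM in those IgG tumors and at 23.5, 202 and 64.6 CPM in those anti-PD-1 tumors. The effect of anti-PD-1 on *Iigp1* was higher by 3.39 ± 1.56 (SE) on day 3 than on day 1 on the log2 scale, with an adjusted p of 1 in edgeR. Over all genes, 0 passed the test of day 3 minus day 1 (0% in each direction), and DESeq2 called 13. An unadjusted p under 0.05 was found for 738 genes (2.75%), 391 above (1.46%) and 347 below (1.29%), among them 7 of the 16 GTPase genes. For day 3 minus 6 hours edgeR called 0 genes and DESeq2 11, and 816 genes (3.04%) had an unadjusted p under 0.05, of which 555 were above (2.07%) and 261 below (0.972%).

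T and NK cell genes had medians of 0.47 at 6 hours (21 of 24 higher), -1.16 on day 1 (0 of 24) and -0.56 on day 3 (2 of 24). Muscle genes had 2.32, -2.55 and -2.24. On day 1 their mean level was 1.03, 0.51 and 8.75 with IgG (replicates 2, 4 and 6) and 1.01, 6.17 and 0.54 with anti-PD-1. MHC class I had 0.31, -0.71 and 0.23. Day 1 IgG replicate 4 was the highest antibody-treated tumor of that day for T and NK cell genes (2.87) and MHC class I (7.9). No member of any of the 29 lists passed the edgeR test of day 3 minus either earlier time, and *Per3* had a log2 fold change of -0.38 at 6 hours, -0.04 on day 1 and -1.05 on day 3.

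**Figure D5:**
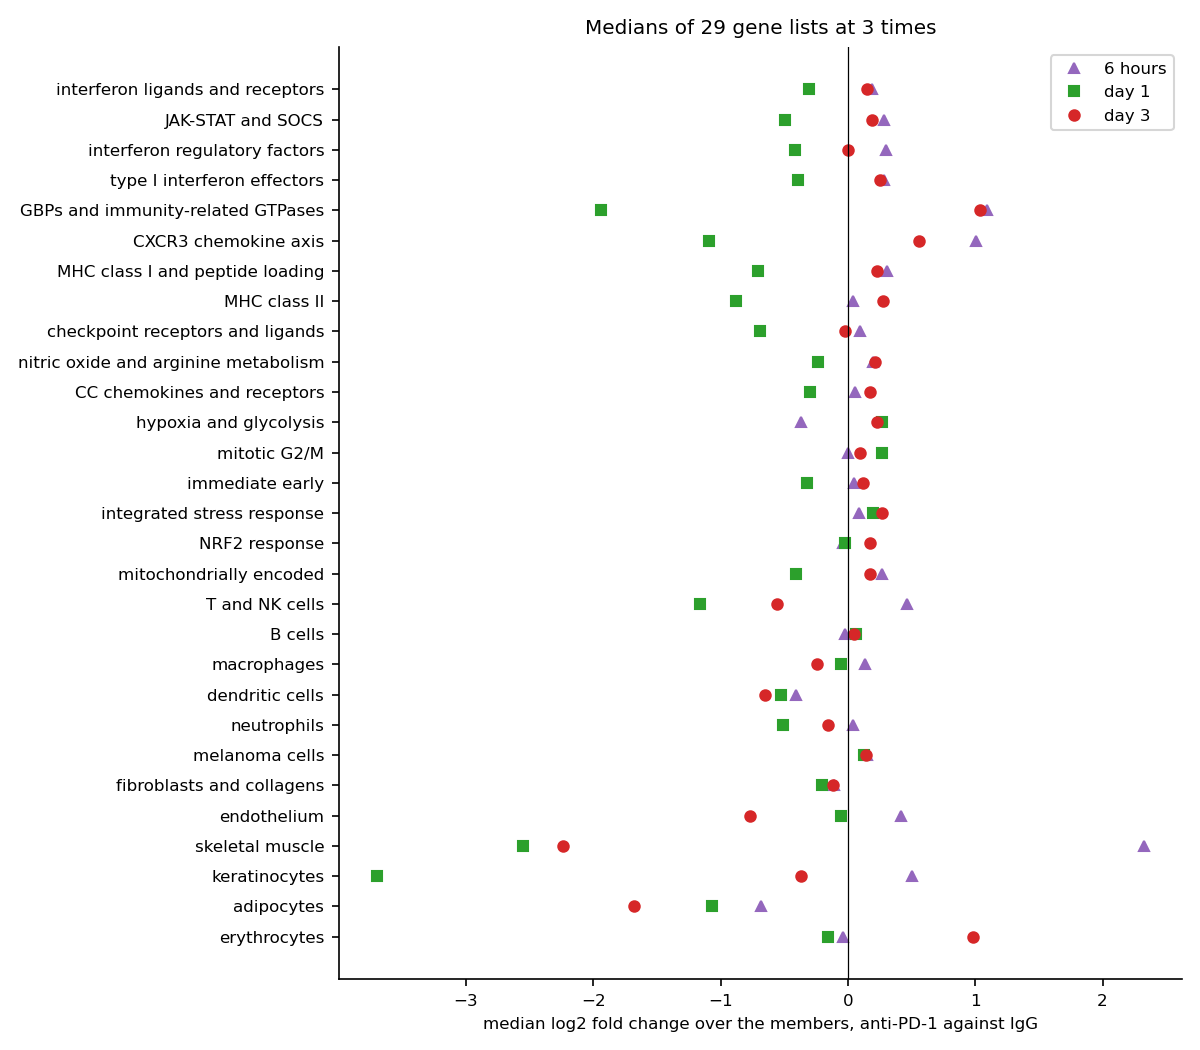
Median log2 fold change of anti-PD-1 against IgG over the members of each gene list at 6 hours (triangles), day 1 (squares) and day 3 (circles); the vertical line is 0. The GTPases sit at 1.09, -1.94 and 1.04, and skeletal muscle at 2.32, -2.55 and -2.24.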

How the data were processed

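RNA sequencing of B16-D5 tumors was used from 9 day 3 tumors, 3 per group, each tumor processed individually from 100 ng of RNA. The authors trimmed reads with cutadapt 1.8.1, aligned them to mm10 with STAR 2.7.7a and quantified GENCODE vM21 genes with RSEM 1.3.0, as the study's methods and the submitters' processing notes give it. The deposited table's name points to featureCounts instead, and which tool made the counts is not settled here, which bears on genes that share sequence. The deposited values are whole-number read counts per gene, and no normalization had been applied. All 55450 gene IDs matched GENCODE vM21, which gave symbols and positions (GRCm38).

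Counts of 30 libraries in 10 groups of 3 were fitted together in R 4.3.3 with edgeR 4.0.16, so that the groups shared 1 estimate of the spread. TMM factors scaled the libraries, filterByExpr with a minimum count of 10 left 26848 genes, and the two-sided quasi-likelihood test was used with Benjamini-Hochberg adjustment across those genes, at a threshold of 0.05. The residual degrees of freedom were 20 and the common coefficient of variation was 0.671. CPM are TMM-scaled and not per length, and list levels are means of log2(CPM + 0.5). Totals and floors of 3 counts cover counting error only. The p-values measure the spread between tumors within groups, pooled over the 10 groups of the fit. They do not measure the spread of the day 3 anti-PD-1 and IgG tumors alone.

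The members and gene lists were chosen with earlier results of these data known. Named genes were the 10 per direction described in the report, genes of the nitric oxide and PD-1 question, and members of each list. Those members were at the highest level or at either end of the log2 fold change. Further list members were printed outside this rule after their values were seen. Among them are *Eif2ak2*, *Btla*, *Asns*, *Mthfd2*, *Adipoq* and *Lep*, whose groups did not overlap. These 6 are not among the 54 named genes followed across the alternatives. DESeq2 1.42.0, other size factors, no filter, a replicate block, a sensory receptor covariate, a fit of the compared groups alone and leaving out each library were alternatives. The fits were tested on simulated data. Some genes that the rule names are not reported here. Promoters came from RefSeq and were searched on both strands.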

Additional observations from a re-analysis of the deposited data

How the results depend on the processing

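In edgeR, 0 genes passed between anti-PD-1 and IgG under every alternative run. DESeq2 called 21, and it called 25 against untreated tumors, 13 for day 3 minus day 1 and 11 for day 3 minus 6 hours. Without the filter on low counts edgeR called 2 genes against untreated tumors. At an unadjusted p under 0.05 the count of 575 (139 higher, 436 lower) ranged from 310 without IgG replicate 3 to 889 without IgG replicate 5. It was 318 without anti-PD-1 replicate 3 (142 higher, 176 lower), 989 without the filter, and 627 with the sensory receptor covariate, where the split was 371 higher and 256 lower. With the replicate block 0 genes passed and 370 had an unadjusted p under 0.05. Only 2 number pairs exist between the groups, with correlations of 0.0844 and 0.121. Over the 30 libraries the 65 pairs ranged from -0.398 to 0.415, with a median of -0.0265. Values were centered on each group's mean, and many pairs join different times. These correlations therefore cannot decide whether same-numbered tumors were paired.

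Leaving out 1 library at a time turned the sign of the following genes, given with their lowest and highest log2 fold changes. *Ifng* ranged from -0.96 to 1.83, *Nos2* from -0.71 to 1.71 and *Irf1* from -0.14 to 1.63. *Iigp1* ranged from -0.31 to 2.46, *Irgm2* from -0.17 to 1.54, *Gbp10* from -0.74 to 3.10 and *Gbp8* from -0.38 to 0.84. *Cxcl9* ranged from -0.28 to 2.17, *Cxcl10* from -0.08 to 1.21, *Cd274* from -0.28 to 1.20, *H2-Q6* from -0.92 to 0.43 and *H2-DMb2* from -0.18 to 1.14. *Pdcd1* ranged from -3.35 to 0.66 and *Cd8a* from -1.87 to 0.87. Without both anti-PD-1 replicate 4 and IgG replicate 3, an alternative chosen after seeing the data, *Pdcd1* was at 1.03, *Cd8a* at 1.35, *H2-Q6* at 0.30, *H2-DMb2* at -0.049, *Cdh5* at 0.15 and *Nos3* at 0.10. Of 54 named genes, 38 kept their direction in every setting and 1, *Oxtr*, passed the threshold in any. Of 29 lists, 10 kept the sign of their median. With the sensory receptor covariate the melanocyte median was -0.01, the mitotic one -0.03 and the fibroblast one 0.00. The cause was not tested. With 3 tumors per group, the median SE was 0.268 on the log2 scale among genes of at least 1 CPM. For some genes it was larger, such as 1.09 for *Iigp1*. Small differences were not detectable. At 4-fold or more, 1 of these genes was higher and 43 were lower, and none was called in edgeR.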
